A study of Mus musculus with 12 samples.

Results

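Rods, the photoreceptors of dim light, make up most of the cells of the mouse retina, and their nuclei are inverted: heterochromatin gathers in the centre instead of lining the nuclear envelope. The lamin B receptor (encoded by Lbr), which also carries a sterol reductase domain, and lamins A and C (encoded by Lmna) tether heterochromatin to the envelope in most other cells. SAMD7 and SAMD11 are photoreceptor proteins of Polycomb repressive complex 1 that keep genes of other cell types silent in rods, and CASZ1 is a zinc finger factor that shapes nuclear organisation in rods. DNA modification at the genes of these 5 rod chromatin organisers, Samd7, Samd11, Casz1, Lbr and Lmna, is described here. The members were named as a gene list, and every listed region that overlapped one of these genes (GENCODE M21 on mm10) with 5 kb on each side was taken. That gave 85 of 193836 regions of the WGBS list and 116 of 592906 regions of the bACE-seq list, at 5 of 21938 protein-coding genes.

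Whole retinas of C57 BL/6J mice were taken at P21 (postnatal day 21), with 3 libraries for each of 2 genotypes in each of 2 assays, 12 in all. Cre- retinas, whose genotype label is WT, came from breeders without the transgene, and Tet tcKO retinas carried loxp/loxp alleles of Tet1, Tet2 and Tet3, the 5mC dioxygenases, with the Chx10-Cre-GFP transgene. This Cre acts in retinal progenitors and is mosaic, so breeders were in-crossed to carry both copies of it, and some unrecombined cells can remain. Whole-genome bisulfite sequencing (WGBS) reads 5-methylcytosine (5mC) and 5-hydroxymethylcytosine (5hmC) together, whereas bACE-seq (bisulfite-assisted APOBEC-coupled sequencing) reads 5hmC alone. The lists hold 1 mean level per group and region, so no spread between libraries and no read depth can be given. The listed regions had passed the authors' own test between the groups, but no comparison made here was tested. A stretch missing from a list is not shown to be unchanged. A region was listed because its groups differed, so the direction within a listed region is a description. In bulk retina, a different share of cells of one type cannot be told apart from a different level per cell. The paper reports far fewer cells with the rod factors NRL and NR2E3 in Tet tcKO, and more cones. The values here are levels of whole retina, not of rods.

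A WGBS region higher in Tet tcKO is called a WGBS gain, and a bACE-seq region lower in Tet tcKO a 5hmC loss. The genes had 82 WGBS gains, 3 WGBS losses, 116 5hmC losses and no 5hmC gain. Weighted by CpGs, the WGBS level of the 82 gains rose by 23.3 percentage points, from 45.4% (Cre-) to 68.6% (Tet tcKO). The 5hmC level of the 116 losses went from 23.1% to 6.40%, so that 27.7% of it was kept. Casz1 alone held 62 of the gains and 59 of the losses. Without it, the rise in the other 20 gains was 21.7 points and the share of 5hmC kept in the other 57 losses was 26.9%.

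The sequences below were read from mm10 and show the kind of DNA that these values describe. Each is given 5′ to 3′ on the strand of the gene, with CpG letters in capitals and all else in lower case, and none lies in an annotated exon. The first is the DNA before the start of Samd7, inside the gain with the largest rise of all 82. The second is the 250-base window with the most CpGs in the longest gain of Samd11, from its gene body. The third precedes an internal start of Casz1, and the fourth is the window with the most CpGs in the Casz1 gain with the largest rise. The fifth and sixth are such windows from the leading gains of Lbr and Lmna, and the last is the part before the start of the only WGBS loss at these genes that covered a start site.
Samd7, chr3:30746043-30746292, plus strand: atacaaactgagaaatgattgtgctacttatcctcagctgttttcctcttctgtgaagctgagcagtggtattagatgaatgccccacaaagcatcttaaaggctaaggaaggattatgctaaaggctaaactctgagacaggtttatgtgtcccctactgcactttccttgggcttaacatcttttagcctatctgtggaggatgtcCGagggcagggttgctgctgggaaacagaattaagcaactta
Samd11, chr4:156249671-156249920, minus strand: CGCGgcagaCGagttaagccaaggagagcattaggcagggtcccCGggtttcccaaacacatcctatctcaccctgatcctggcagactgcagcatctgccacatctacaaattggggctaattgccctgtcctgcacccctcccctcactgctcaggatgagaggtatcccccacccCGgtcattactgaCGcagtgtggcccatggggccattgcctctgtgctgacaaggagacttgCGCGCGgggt
Casz1 internal start, chr4:148889097-148889346, plus strand: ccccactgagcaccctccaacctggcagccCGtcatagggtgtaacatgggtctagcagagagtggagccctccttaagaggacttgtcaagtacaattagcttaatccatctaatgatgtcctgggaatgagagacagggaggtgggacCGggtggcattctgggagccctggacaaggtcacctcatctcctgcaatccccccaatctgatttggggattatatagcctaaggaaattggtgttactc
Casz1 intron, chr4:148915940-148916189, plus strand: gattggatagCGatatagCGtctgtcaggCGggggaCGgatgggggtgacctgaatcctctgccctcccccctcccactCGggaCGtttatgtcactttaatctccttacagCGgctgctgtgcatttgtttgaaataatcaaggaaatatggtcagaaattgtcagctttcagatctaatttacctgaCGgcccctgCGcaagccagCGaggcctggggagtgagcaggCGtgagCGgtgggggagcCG
Lbr intron, chr1:181832927-181833176, minus strand: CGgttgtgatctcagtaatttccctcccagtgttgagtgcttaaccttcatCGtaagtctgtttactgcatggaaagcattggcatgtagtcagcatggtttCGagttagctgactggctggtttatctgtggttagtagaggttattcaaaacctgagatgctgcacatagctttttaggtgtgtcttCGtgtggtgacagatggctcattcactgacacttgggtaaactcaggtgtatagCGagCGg
Lmna upstream, chr3:88513276-88513525, minus strand: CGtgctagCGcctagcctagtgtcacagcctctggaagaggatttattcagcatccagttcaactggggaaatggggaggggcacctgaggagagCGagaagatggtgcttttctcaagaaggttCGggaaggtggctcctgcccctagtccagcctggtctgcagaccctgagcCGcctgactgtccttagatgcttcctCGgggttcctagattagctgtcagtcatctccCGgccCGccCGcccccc
Lmna start, chr3:88509957-88510038, minus strand: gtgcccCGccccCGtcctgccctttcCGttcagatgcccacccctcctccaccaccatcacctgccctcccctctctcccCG

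The sequences were picked in different ways, so their CpG counts do not compare the genes. The Samd7 stretch held 1 CpG in 250 bases and the internal Casz1 start 2, against 13 in the Casz1 intron window, 9 in each of the Samd11 and upstream Lmna windows, and 6 in the Lbr window. The 82-base Lmna stretch held 4. The windows from Samd11, the Casz1 intron, Lbr and upstream of Lmna were picked for the most CpGs, and the other stretches by position. Per 100 bp, the stretches before the Samd7 start and the internal Casz1 start held 0.4 and 0.8 CpGs. The median protein-coding locus held 1.16, but that is a density over whole loci and not over stretches before a start. The counts also depend on where a stretch is cut. The RefSeq promoter windows of these same starts, 300 bases each, held 3 CpGs each.

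All 5 genes overlapped at least 1 WGBS gain, as did 76.8% of protein-coding genes and 75.0% of protein-coding and long noncoding genes together, so presence of a gain was near the background. All 5 also overlapped a 5hmC loss, against 88.3% of protein-coding genes and 88.9% with long noncoding genes. The genes differed in extent. Gains covered 66.7% of the bases of the Casz1 locus, 35.8% of Samd11, 16.1% of Samd7, 10.1% of Lmna and 7.28% of Lbr, where the median protein-coding locus had 3.36%. Casz1 ranked 11 of 21938 by this share, Samd11 181, Samd7 1587, Lmna 3690 and Lbr 5804. Of the 18692 bases of Samd11, 5467 are unknown in mm10, 4646 of them before the gene. Whether those bases would lie in a gain cannot be read. Of its known bases, 50.5% lay in a gain.

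5hmC losses covered 73.5% of the Casz1 locus, 64.7% of Samd7, 62.4% of Samd11, 61.5% of Lmna and 44.2% of Lbr, against a median of 27.7% over protein-coding loci. Over known bases, Samd11 had 82.0%, above Casz1. Its place in this order thus depends on whether the unknown bases are counted, and which order is right cannot be decided. Lbr was the lowest of the 5 either way. In Cre-, the mean 5hmC level of these losses, weighted by CpGs, was 27.3% at Samd7, 25.0% at Casz1 and 21.9% at Samd11, and 15.5% at Lmna and 15.2% at Lbr (median of protein-coding genes, 14.6%). The value of Samd11 rests on 1 region with 170 CpGs, which also overlaps the neighbouring gene Noc2l. The unweighted median over the 5 losses of Samd11 was 8.82%, below those of Lbr (12.0%) and Lmna (16.2%). Samd7 (26.0%) and Casz1 (24.5%) stayed above them.

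**Figure D1:**
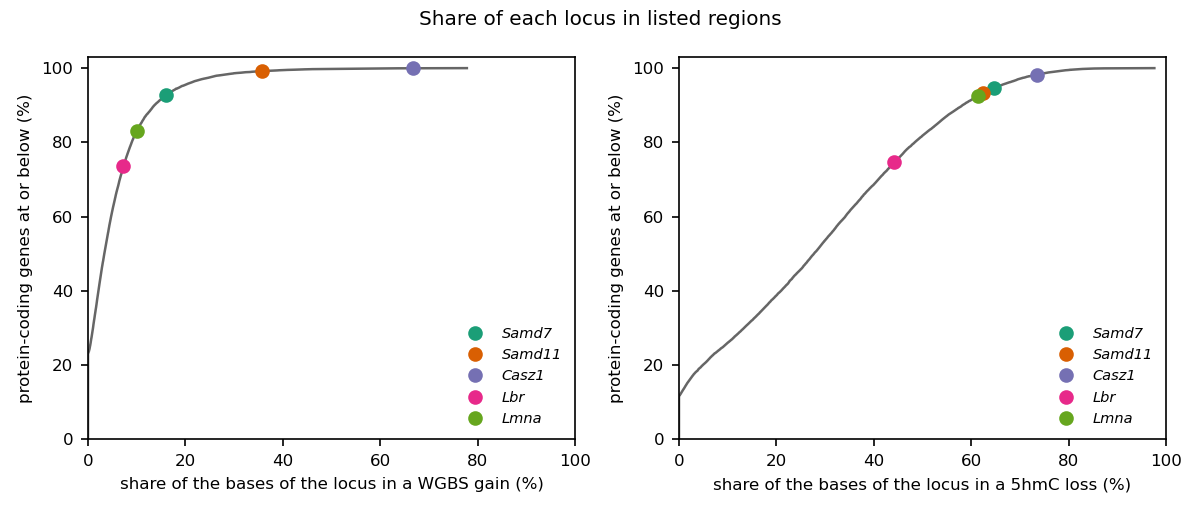
Cumulative share of protein-coding genes (y axis, %) by the share of the bases of each locus that lay in a WGBS gain (left) or a 5hmC loss (right), with the 5 genes as coloured points. Casz1, at 66.7% and 73.5%, lay farthest right and Lbr, at 7.28% and 44.2%, farthest left of the 5, with all bases counted. Over known bases alone Samd11 would stand at 50.5% and 82.0%.

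In Tet tcKO the 5hmC level of the losses was 7.93% at Samd7, 7.01% at Casz1, 5.67% at Samd11, 4.07% at Lmna and 3.85% at Lbr. The order of the 5 genes was the same as in Cre-. The share of 5hmC kept was 29.1% at Samd7, 28.0% at Casz1, 26.3% at Lmna, 25.9% at Samd11 and 25.4% at Lbr. With no background subtracted, the genes were thus closer in this share than in level. The median gene kept 23.6%, and each of the 5 lay above it. The paper reports that a small part of unmodified cytosines failed to convert in bACE-seq, which would weigh most on low levels. With 1 point subtracted, the share kept over the 5 genes together was 24.4% in place of 27.7%. This point is less than the average rate of failed conversion in the paper. A subtraction at that rate was not run and would give a lower share. Shares per gene were not corrected in this way. Samd7 ranked 238 of 19362 protein-coding genes by the Cre- level of its losses and 44 by the Tet tcKO level.

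The rise of the WGBS level within the gains was 29.4 points at Samd7, 25.5 at Lbr, 23.5 at Casz1, 20.3 at Samd11 and 16.8 at Lmna, against a median of 15.8 over 16845 protein-coding genes with a gain. Lbr had the smallest share of its locus in gains but the second largest rise within them. Casz1 and Lmna started from like levels in Cre-, 45.3% and 43.7%, and ended at 68.8% and 60.5%. The number of CpGs behind these means was 2219 at Casz1, 142 at Samd11, 105 at Lmna, 77 at Samd7 and 33 at Lbr, so the values of Lbr and Samd7 rest on few CpGs.

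**Figure D2:**
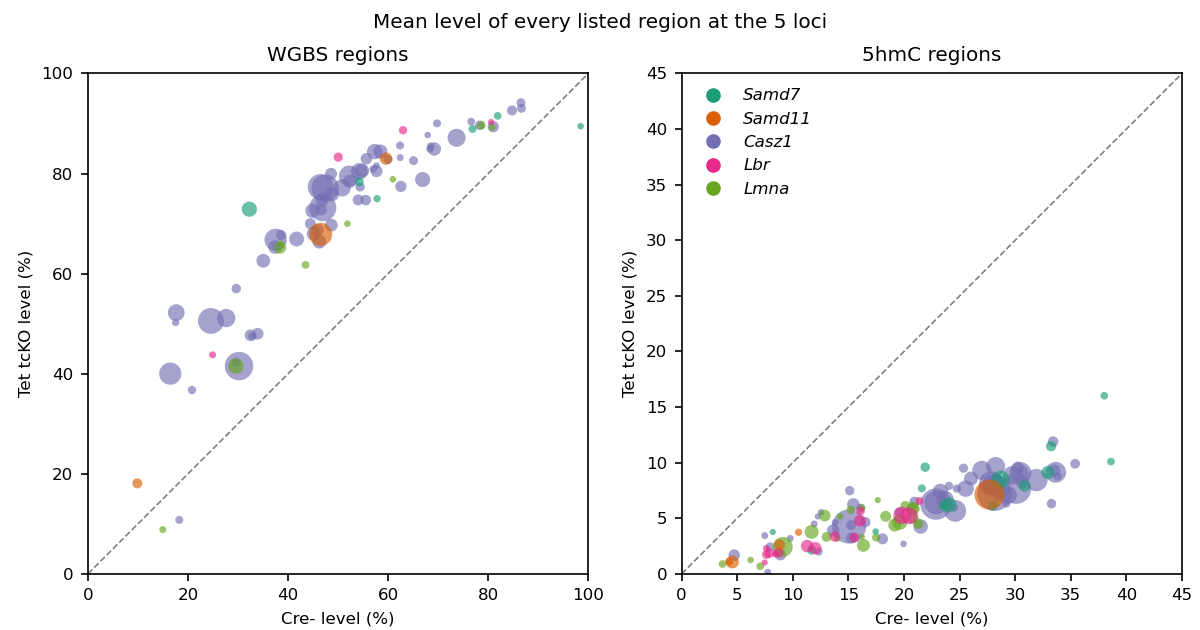
Tet tcKO level (y axis, %) against Cre- level (x axis, %) of each listed region at the 5 loci, WGBS on the left and 5hmC on the right, with point area growing with the number of CpGs and equal levels on the dashed line. Apart from 3 losses, WGBS points lie above the line. The 116 5hmC points lie below it, with changes from -28.5 to -2.79 points, and at most at 16.0% in Tet tcKO.

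Samd7 encodes a sterile alpha motif protein of rod Polycomb complexes and lies at chr3:30746293-30767174 on the plus strand. Its main WGBS gain, chr3:30746019-30749058, ran from position -274 to 2765 relative to the outermost start site, over both that start and the start of the main protein-coding transcript 47 bp after it. Its 41 CpGs went from 32.3% to 72.9%, a rise of 40.6 points. Among the 4361 WGBS gains that covered a start site of any protein-coding gene, 98.3% had a smaller rise, and this one ranked 73. Their median rise was 14.7 points.

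The other 4 gains at Samd7 were short, with 7 to 12 CpGs each. The leading one of them, chr3:30769670-30770375 beyond the 3′ end, went from 54.2% to 78.3%. By position, CpGs were placed within 1 kb of a start of the basic annotation or of the outermost start, and otherwise in basic exons, introns or flanks. Each CpG was given the mean level of the listed region around it. Levels by position are therefore means of regions, which can reach beyond the position named. Near the starts of Samd7, 23 of 27 CpGs lay in a gain, in exons 0 of 43, in introns 26 of 144, and in the downstream flank 28 of 50. Samd7 was thus marked mainly at its start and beyond its end.

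A WGBS loss also stood upstream of Samd7, at chr3:30743468-30743750, where 5 CpGs went from 98.5% in Cre- to 89.5% in Tet tcKO. It lay inside a 5hmC loss that went from 21.9% to 9.59%. Of protein-coding loci, 4.90% overlapped a WGBS loss, and 3 of the 5 genes did: Samd7, Casz1 and Lmna, with 1 each. The level fell by 8.99 points at Samd7, fell by 7.47 points at Casz1 and fell by 6.11 points at Lmna, and the median change of all 2672 WGBS losses was -9.34 points.

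The 14 5hmC losses of Samd7 ran along the gene and both flanks, with Cre- levels from 8.20% to 38.6%. The ones with the largest fall times CpGs were chr3:30764394-30769214 over the 3′ end, from 28.7% to 8.50% at 57 CpGs, and chr3:30748938-30752307, from 32.9% to 9.10% at 30 CpGs. Just after the protein-coding start, 5hmC was lower already in Cre-, at 11.7%, and was 2.13% in Tet tcKO. So the interval with the largest WGBS rise of the gene was not the one with most 5hmC.

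Samd11, a paralogue that joins the same complexes, lies at chr4:156246966-156255657 on the minus strand. Its longest gain, chr4:156248846-156253360, covered 4515 of the 8692 bp of the gene and went from 46.5% to 67.8% over 100 CpGs, a rise of 21.4 points. By rise times CpGs it ranked 173 of 191164 WGBS gains. It covered the starts of 2 noncoding transcripts with a retained intron, inside the gene. The next gain, chr4:156245783-156247523 at the 3′ end, went from 59.6% to 83.0% over 26 CpGs and overlaps the neighbouring gene Noc2l, so it cannot be given to Samd11 alone.

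At the 5′ end of Samd11 the levels were low. The gain chr4:156255399-156255825, from -168 to 258, went from 9.86% to 18.1% over 16 CpGs and covered the outermost start, that of 1 protein-coding transcript, but not the start of the main transcript 319 bp after it. Its rise was 8.22 points, and 16.6% of gains over a start site had a smaller one. Here 4646 of the 5000 bp before the gene are unknown bases in mm10, so nothing can be read there.

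The 5hmC losses of Samd11 were 5. The longest, chr4:156243621-156252311, held 170 CpGs, went from 27.7% to 7.12%, and ranked 158 of 592697 losses by fall times CpGs. It runs past the 3′ end of the gene and overlaps Noc2l, so it cannot be given to Samd11 alone. The losses of Samd11 also span 821 unknown bases. The second, chr4:156252588-156254385, fell from 8.82% to 2.61% over 19 CpGs, and the loss over the start sites at the 5′ end from 4.56% to 1.06%. Of 65 exon CpGs, all lay in a 5hmC loss, and 47 in a WGBS gain. The 5hmC losses around CpGs near the start sites of Samd11 averaged 5.17% in Cre-, against 24.3% for those around intron CpGs.

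**Figure D3:**
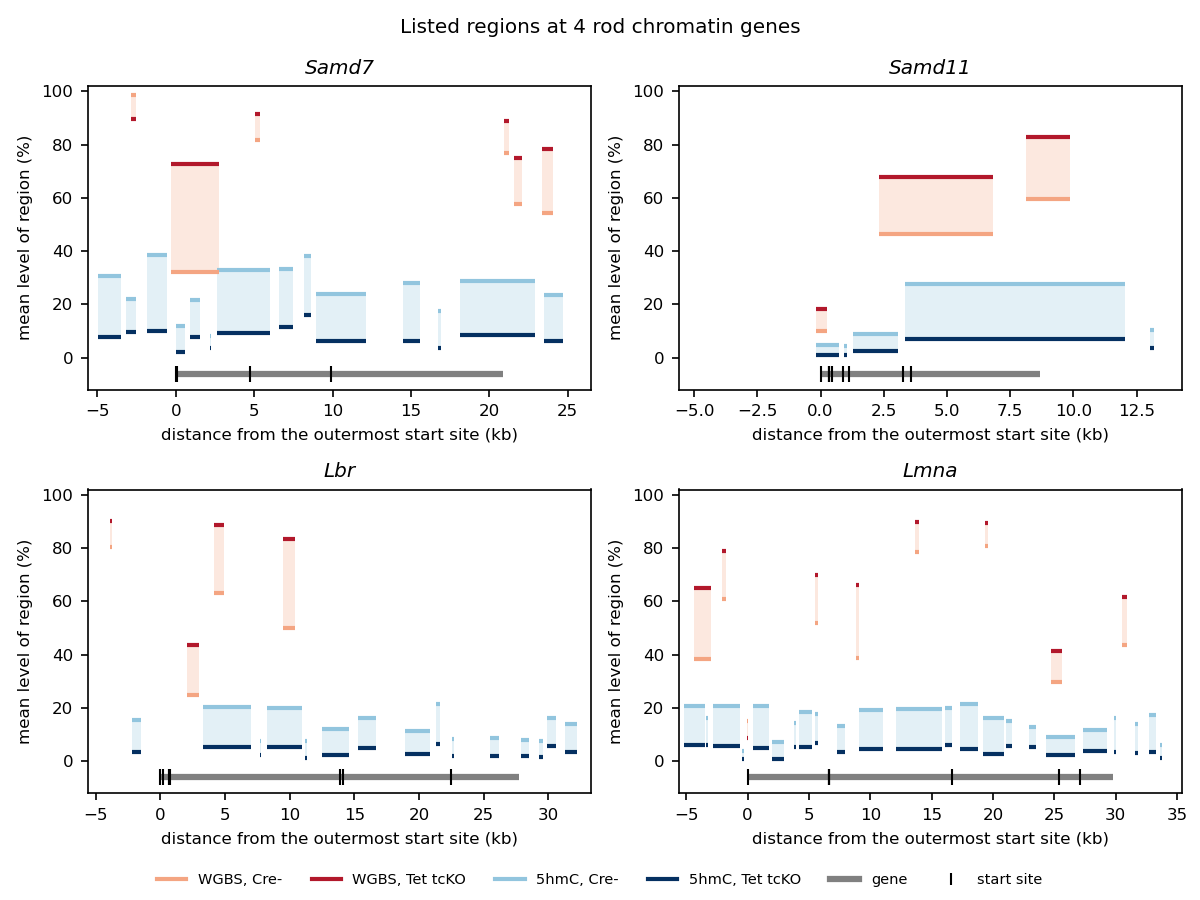
Mean level (y axis, %) of each listed region at Samd7, Samd11, Lbr and Lmna, by distance from the outermost start site in the direction of transcription (x axis, kb), with WGBS in red and 5hmC in blue, Cre- light and Tet tcKO dark, the gene as a grey bar and start sites as ticks. At Samd7 the WGBS gain over the start rose from 32.3% to 72.9%, whereas Lbr had no region over its starts at the 5′ end.

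Casz1, at chr4:148804429-148954889 on the plus strand, carried gains along most of its length. The 62 gains had a median rise of 23.1 points, and 41 of them rose by 20 points or more (66.1%, against 27.9% of all WGBS gains). Among 2809 protein-coding loci of 100 kb or more, Casz1 had the highest share of bases in a gain, where the median was 4.55%. The rank depends on this cut, since Ccdc85c, at 81824 bp, had 69.5%, and Casz1 ranked 11 of 21938 over all lengths. The 5hmC share of Casz1 ranked 59 of the same 2809. The genes Gm15969 and Gm13205 are antisense to Casz1, and modification within them cannot be given to one gene.

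By rise times CpGs, the leading gains of Casz1 lay in introns near its 5′ end. The gain chr4:148817391-148823704 went from 47.4% to 77.1% over 141 CpGs and ranked 33 of 191164, and chr4:148830265-148836883 went from 46.5% to 77.3% over 124 CpGs and ranked 40. The gain with the largest rise, shown as the Casz1 intron sequence, was chr4:148914217-148916897, from 17.6% to 52.2% over 51 CpGs, a rise of 34.6 points. Of its bases, 20.4% lay in a 5hmC loss. The loss wholly inside it, chr4:148915112-148915302, went from 7.75% to 0.137%, and the other overlapped its edge. The gain with the most CpGs, 152, lay over coding sequence near the 3′ end and rose by only 11.3 points, from 30.2% to 41.5%.

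No region covered the outermost start of Casz1, which 2 protein-coding transcripts share. The gain nearest to it ended at position -438. Near the outermost start, 13 of 119 CpGs of Casz1 lay in a WGBS gain and 11 in a 5hmC loss, against 1847 and 1932 of 2674 intron CpGs. An internal start, 84952 bp into the gene, was covered by the gain chr4:148888900-148892328, from 16.4% to 40.0% over 91 CpGs. It belongs to a processed transcript in GENCODE, and RefSeq places a start of Casz1 within the same gain. Its rise of 23.6 points was larger than that of 81.3% of gains over a start site.

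Each bin of 20 kb along the gene held gains, and the rise was smallest in the last bin. Per bin, 53.3% to 86.4% of CpGs lay in a WGBS gain. The rise lay between 21.0 and 27.7 points in the bins up to 140 kb from the start, and was 13.2 points in the last 10.5 kb. Exon CpGs within a gain lay in gains that rose by a mean of 12.9 points, from 49.6% to 62.6%. For intron CpGs the gains rose by 25.5 points, from 44.2% to 69.7%. A gain can span both, so these are not levels of exons or introns alone. Exon CpGs of Casz1 within a 5hmC loss lay in losses whose mean level fell from 22.3% to 5.97%. For intron CpGs the mean level of the losses fell from 25.7% to 7.23%. A loss that spans both gives its exon and intron CpGs the same value. Whether exons and introns of Casz1 are alike in 5hmC therefore cannot be read from these means.

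The 59 5hmC losses of Casz1 included 2 near its 3′ end that led by fall times CpGs. The loss chr4:148931209-148939973 went from 28.2% to 7.22% over 230 CpGs and ranked 41 of 592697, and chr4:148941510-148949222 went from 30.1% to 7.65% over 173 CpGs. Between them lay the WGBS loss of Casz1, chr4:148940929-148941126 in an intron, where 9 CpGs went from 18.2% to 10.8%. No 5hmC region overlapped it. So a low-methylated stretch that fell in WGBS stood between 2 long stretches that lost 5hmC.

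**Figure D4:**
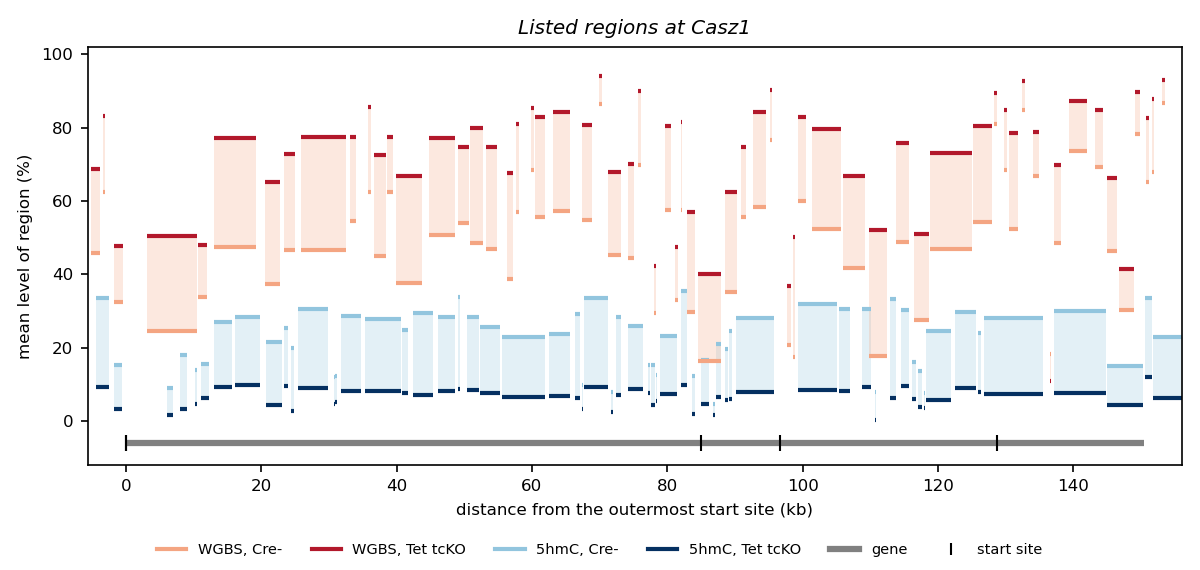
Mean level (y axis, %) of each listed region along Casz1 by distance from the outermost start site (x axis, kb), with WGBS in red and 5hmC in blue, Cre- light and Tet tcKO dark, the gene as a grey bar and start sites as ticks. Gains cover most of the gene and rise by a median of 23.1 points, with a gap around the outermost start.

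Lbr, at chr1:181815335-181843046 on the minus strand, had 4 gains. The leading one, chr1:181832639-181833526 in an intron, went from 50.0% to 83.3% over 13 CpGs, and 95.7% of all WGBS gains had a smaller rise than its 33.3 points. The second, chr1:181838147-181838880 over a coding exon, went from 63.0% to 88.7% over 10 CpGs. The third, chr1:181840091-181841000, went from 24.9% to 43.8% over 6 CpGs and overlaps the small RNA gene Gm26004. The fourth lay upstream, with 4 CpGs and a rise of 9.73 points.

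The 5′ end of Lbr was free of listed regions. Within 1 kb of the outermost and basic starts, 0 of 170 CpGs lay in a WGBS gain and 0 in a 5hmC loss, of 615 CpGs in the whole locus. Starts of 2 transcripts inside the gene, 13892 and 14160 bp from the outermost, lay in a 5hmC loss that went from 12.0% to 2.30%. The 15 5hmC losses had Cre- levels from 7.47% to 21.4%, and none fell by 20 points. The leading ones were chr1:181832121-181834804, from 19.8% to 5.25% over 54 CpGs, and chr1:181836011-181839784, from 20.5% to 5.22% over 51 CpGs. Each of these surrounded one of the leading WGBS gains. Dnah14 overlaps the 3′ end of the Lbr locus.

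Lmna, at chr3:88480147-88509956 on the minus strand, had 8 gains with 4 to 41 CpGs. The leading one lay upstream, at chr3:88512917-88514362, and went from 38.4% to 65.2% over 25 CpGs, a rise of 26.8 points. The one with the most CpGs, chr3:88484345-88485196 near the 3′ end, covered the start of a noncoding transcript with a retained intron and coding sequence, and went from 29.6% to 41.5%, a rise that 34.7% of gains over a start site did not reach. In exons, 34 of 101 CpGs lay in a gain, in introns 30 of 247, and in the upstream flank 30 of 53.

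A WGBS loss covered the outermost start of Lmna, at chr3:88509909-88510038, from 14.9% to 8.83% over 6 CpGs. This start belongs to a protein-coding transcript outside the basic annotation, and the RefSeq promoter windows of Lmna lie elsewhere. Of protein-coding genes, 0.474% had a loss over a start site, a share not matched for the 7 annotated starts of Lmna. No region of either list overlapped the starts of 2 protein-coding transcripts of the basic annotation, 6621 and 6649 bp into the gene. Of the 23 5hmC losses, the leading ones were chr3:88494085-88497848 in an intron, from 19.6% to 4.64% over 41 CpGs, and chr3:88483301-88485642 near the 3′ end, from 9.09% to 2.41% over 74 CpGs. The 5hmC losses around exon CpGs of Lmna averaged 10.6% in Cre-. Those around intron CpGs averaged 16.4% and those around CpGs of the upstream flank 20.2%.

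Start sites compared across the 5 genes gave a split picture. A gain covered some annotated start of Samd7, Samd11, Casz1 and Lmna, 4 of 5 genes, where 16.3% of protein-coding genes had one. The 5 genes have many annotated starts, from 4 to 9 each, and among the 10126 protein-coding genes with 4 or more the share was 26.3%. At the outermost start the count was 2, Samd7 and Samd11, against 5.01% of genes, and at the starts of the basic annotation it was 1, Samd7, against 7.84%. A 5hmC loss covered a start of all 5 genes, against 41.6% of protein-coding genes and 64.4% of those with 4 or more starts. No gene of the 5 had a 5hmC gain, and 0.401% of protein-coding genes did.

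Where a CpG lay in both a WGBS gain and a 5hmC loss, the level of 5hmC can be set beside that of both marks together. Such CpGs made up 79.2% of the gain CpGs at Samd7, 96.5% at Samd11, 84.8% at Casz1, 69.7% at Lbr and 82.9% at Lmna. At these CpGs of Casz1, Cre- had a WGBS level of 47.6% and a 5hmC level of 24.8%, so that 5hmC was 52.0% of the WGBS level. Tet tcKO had 70.6% and 6.97%, a ratio of 9.88%. In Cre- this ratio was 52.2% at Samd11, 44.0% at Samd7, 36.1% at Lbr and 32.5% at Lmna. In Tet tcKO it was 9.27%, 8.28%, 6.12% and 6.50% in the same order.

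Subtracting the 5hmC level from the WGBS level leaves the part read as 5mC. It was 22.9% in Cre- and 63.6% in Tet tcKO at Casz1, 21.4% and 58.9% at Samd11, 29.1% and 72.3% at Samd7, 35.5% and 80.4% at Lbr, and 29.8% and 55.9% at Lmna. This is arithmetic on means of regions from different libraries, with boundaries that differ between the lists, and carries no error. At these CpGs the WGBS rise therefore understates the change in 5mC by the size of the fall in 5hmC.

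Motifs known from rod genes were counted in the promoter windows of RefSeq (GRCm38.p6, 250 bases before to 50 after a start), on both strands: TAATCC, bound by CRX and OTX2, and TGCTGA, a part of the NRL site. TAATCC stood in 7.06% of all 32851 windows and TGCTGA in 19.5%. The Samd7 window held 1 TAATCC, the Samd11 window 2 and the internal Casz1 window 2, and the windows of the outermost Casz1 start, of Lbr and both of Lmna held none. TGCTGA stood once in the Samd11 window and in no other. In the WGBS gain over the Samd7 start TAATCC stood 3 times and TGCTGA 6 times in 3040 bp, 0.987 and 1.97 per kb, where all gains over a start site held 0.452 and 0.933 per kb. The gain at the internal Casz1 start held 0.875 and 0.292 per kb, the long Samd11 gain 0.443 and 1.55, and the short Samd11 gain 4.68 of each, which is 2 matches of each in 427 bp. The Lmna gain over a start held neither motif in 852 bp. Against all gains over a start site, the 5 gains thus lay on both sides for each motif. A match of letters is a description and shows no binding.

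Genes of the machinery around these proteins were taken from 4 lists. All 13 Polycomb genes, 12 genes of the NuRD complex, which CASZ1 binds, 11 genes of the nuclear lamina and envelope and 8 genes of heterochromatin proteins overlapped a WGBS gain and a 5hmC loss, as did 76.8% and 88.3% of protein-coding genes. The median share of bases in a gain was 8.40% for Polycomb, 5.81% for NuRD, 10.1% for the lamina and envelope and 6.41% for heterochromatin proteins, against 16.1% for the 5 genes. Casz1 and Samd11 lay above each of these genes. The highest were Lmnb1, which encodes lamin B1, at 29.7%, Phc2, a Polycomb subunit, at 29.0%, Mta2, a NuRD subunit, at 23.8%, and H1f0, a linker histone, at 21.2%. The lowest were Suz12 at 0.604%, Setdb1, an H3K9 methyltransferase, at 0.900%, Hdac2 at 2.32% and Emd, which encodes emerin, at 2.58%. A gain covered a start site in 3 Polycomb, 2 NuRD, 5 lamina and envelope and 1 heterochromatin gene, that is 3 of 13, 2 of 12, 5 of 11 and 1 of 8, beside 16.3% of protein-coding genes. That background was not matched for the number of annotated starts, and was 26.3% among genes with 4 or more.

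**Figure D5:**
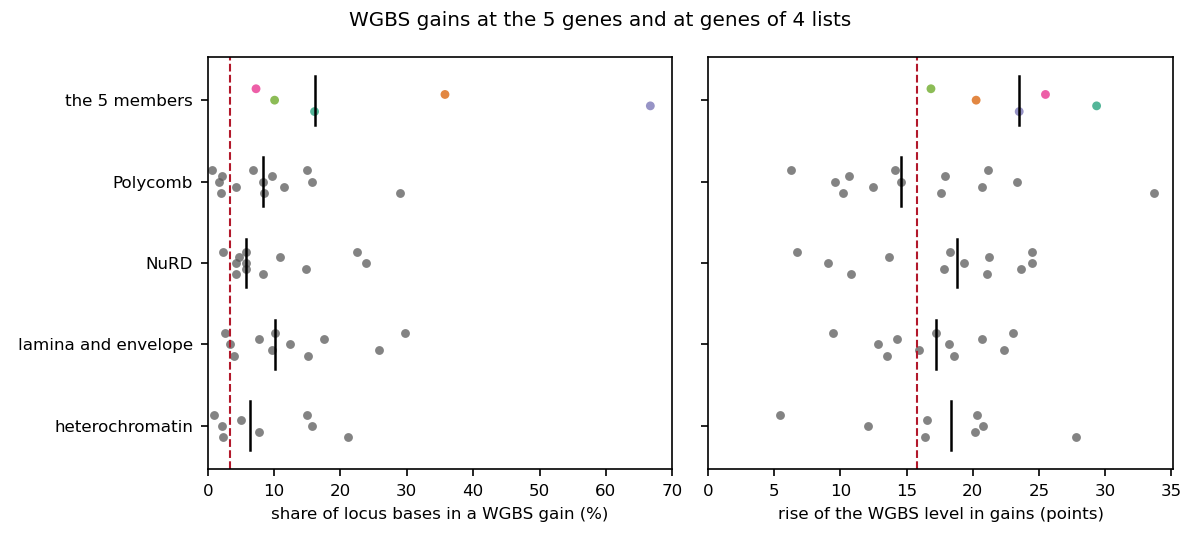
Share of the bases of each locus in a WGBS gain (left, %) and rise of the WGBS level within gains (right, percentage points) for the 5 genes (coloured as in the other plots) and for each gene of 4 lists (grey), with list medians as black bars and the median of protein-coding genes dashed in red. Casz1 at 66.7% and Samd11 at 35.8% lay right of each listed gene, while the rises overlapped between the lists.

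The median rise was 14.5 points for Polycomb, 18.8 for NuRD, 17.2 for the lamina and envelope, 18.3 for heterochromatin proteins and 23.5 for the 5 genes. The median share of 5hmC kept was 23.7%, 24.7%, 25.0%, 23.4% and 26.3% in the same order. Over protein-coding genes the medians were 15.8 points and 23.6%.

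The genes most like each member were sought among 16210 autosomal protein-coding genes by locus length, share in gains, rise, share in 5hmC losses and Cre- 5hmC level, each in units of its SD over genes. They were Stard7 and Ndufv2 for Samd7, Ptov1 and Noc2l for Samd11, Ccdc85c for Casz1, Ada and Traf1 for Lbr, and E2f2 and Fpgs for Lmna. Noc2l shares regions with Samd11. The distance was 0.992 SD from Casz1 to Ccdc85c and 0.259 SD from Lmna to E2f2, so the gene nearest to Casz1 was the farthest among the 5. At Ccdc85c gains covered 69.5% of the locus.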

How the data were processed

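DNA of whole P21 retinas was profiled in 3 libraries per genotype and assay. Per the submitters' processing notes and methods, reads were trimmed with Trim Galore 0.4.4, aligned to mm10 with Bismark 0.18.2 and counted with MethylDackel 0.6.1, and regions were called with DSS, which smooths levels along the genome. The deposited levels are the authors' group means, each a fraction between 0 and 1 of reads called modified, given here in percent. The lists also hold the authors' difference and area statistic, which were not used. Group order was taken from the names of the lists.

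Cre- levels were subtracted from Tet tcKO levels. Means over regions were weighted by CpGs. Loci were genes of GENCODE M21 with 5 kb on each side. Starts were the first bases of all transcripts. The number of CpGs given for a region matched mm10 for 99.2% of the WGBS list and 97.3% of the bACE-seq list. Exons, promoters and sequences came from GENCODE and RefSeq (GRCm38.p6). Overlap counting was tested on simulated data. Python 3.11.15, numpy 2.4.6, pandas 2.3.3 and matplotlib 3.10.9 were used.

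The genes, gene lists, motifs and alternatives were chosen with earlier results of these data known. Named were, for each gene, WGBS regions over a start site, the 2 gains with the largest rise times CpGs, each WGBS loss, and the 2 5hmC losses with the largest fall times CpGs. Further regions, such as the Casz1 gains with the largest rise and the most CpGs and the remaining gains of Lbr, were named after their values were seen. Likewise named by rule were the 2 nearest genes of each member and the highest and lowest gene of each list. One of the nearest genes is not reported here. Because the lists hold group means, read depth and replicate spread were not analysed here.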

Additional observations from a re-analysis of the deposited data

How the results depend on the processing

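No paired analysis was possible because the lists hold 1 mean per group and no value per library, so the fit with the replicate number as a block and leaving out a library were not run. Of 47 alternative values of 7 results, 42 stayed within 1.5 times the reported value, 5 moved further and none reversed. The rise in the gains lay between 21.1 and 26.7 points. The share of 5hmC kept lay between 24.4%, with 1 point subtracted as background, and 28.3%. The 24.4% is not a lower bound, since the failed conversion reported in the paper is larger than 1 point. Counting only regions with a difference of at least 20 points left 49 WGBS gains and 27 5hmC losses, and 24.9% of locus bases in a 5hmC loss in place of 61.3%, since fewer regions pass. The count of genes with a gain over a start site was 2 for the outermost start and 1 for starts of the basic annotation, in place of 4, since fewer starts are used. The basic annotation and leaving out each gene in turn were chosen after seeing the data. Without Casz1, the rise was 21.7 points. Depth could not be weighed, because the lists give none.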
